A study of Arabidopsis thaliana with 12 samples.

Results

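Lipid transfer proteins are small secreted proteins whose fold, held together by conserved cysteines, encloses a cavity that binds fatty acids and other lipids. In plants they are known for work at the cuticle, the lipid layer that covers the epidermis, for building the pollen wall in the anther, and for signalling in systemic acquired resistance, the whole-plant immune state that follows a local infection. Many of their genes stand side by side in the genome. The genes described here are the 94 of 25566 genes in the authors' expression table whose description contains the words lipid-transfer protein or lipid transfer protein. Most belong to the broad superfamily of bifunctional inhibitors, lipid transfer proteins and seed storage albumins. The wording also takes in 5 glycolipid transfer proteins, an unrelated family of proteins inside the cell, which are described apart. Of the 94 genes, 47 carried the annotation extracellular region and 31 the annotation lipid transport in the same table.

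The study set a mettl16 mutant of Arabidopsis thaliana against the reference accession Col-0, in a series on N6-methyladenosine (m6A) and the floral transition. Both groups were the above-ground parts of plants 3 weeks old, grown under 16 h of light and 8 h of dark at 23 °C, and the ecotype label was Col-0 for both. There were 12 samples: 3 m6A immunoprecipitates and 3 RNA-seq libraries of mettl16, and the same of Col-0. The labels name no locus, allele or number of lines for mettl16 and do not say how many plants entered a sample.

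FIO1 (AT2G21070), the Arabidopsis homologue of METTL16 and taken from general knowledge to be the mutated gene, stood at 0.292, 0.148 and 0.197 FPKM in the mettl16 libraries, against 1.98, 2.13 and 2.31 FPKM in Col-0 (log2 change -1.37, SE 0.0853, limma adjusted p = 4.94e-07). FPKM is the number of fragments scaled by transcript length and library size, so levels can be compared between genes. FPKM summed to between 699031 and 706690 in mettl16 and between 714685 and 718824 in Col-0. Each library lay closer to its own genotype (Pearson's r of log2 values at least 0.994) than to the other (at most 0.959). Markers of floral organs and of the anther's tapetum were higher in mettl16. All 11 tested genes of a 13-gene floral organ list rose, where 41.1% of all tested genes rose and 23.4% fell. The summed level of the list was 101 to 102 FPKM in mettl16, against 11.5 to 11.9 FPKM in Col-0. All 8 tested genes of a 14-gene tapetum and pollen wall list rose, against the same 41.1% of all tested genes. This list summed to 33.9 to 34.6 FPKM in mettl16, against 11.2 to 12.4 FPKM in Col-0. In Col-0 8 of those 14, among them MS1, MYB80, DYT1 and A6, were listed at 0, as was STK of the floral organ list. Only genes with a 6-library mean of 0.5 FPKM or more were tested, so a gene near 0 in Col-0 entered the test only if it was higher in mettl16. Among the 11 floral organ genes only SEP1 and SEP4 had a Col-0 mean of 0.5 FPKM or more. Among the 8 tapetum genes only LAP3, LAP6 and DRL1 did. The other tested genes of these lists passed the filter through mettl16 alone and so had to rise. Of 10 leaf genes 7 fell, 1 rose and 2 did not pass, where 23.4% of all tested genes fell and 41.1% rose. The leaf genes summed to 54279 to 58744 FPKM in mettl16 and 66121 to 68244 FPKM in Col-0. The 7 (LHB1B2, CAB2, CAB3, LHCB2.3, LHCB3, LHCA1 and LHCA3) all encode chlorophyll-binding proteins. RBCS1A, RBCS3B and RCA had log2 changes of 0.09, 0.04 and -0.02, so the leaf genes did not fall as a whole. Of 9 root markers 4 were in the table, none above 0.384 FPKM. The part of these marker differences in the results below was not tested, and whether the organs themselves differed was not measured. In bulk samples more cells of a type and more RNA per cell cannot be told apart.

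Lipid transfer protein genes changed in both directions, with LTP4 and LTP3 among the risers and AT4G22485 and AT4G22505 among the fallers. Of the 94 genes 63 reached the filter of 0.5 FPKM. Of these, 28 were higher and 22 lower in mettl16 and 13 did not pass the test, which was limma on log2(FPKM + 1) at an adjusted p of 0.05 over all 19505 genes tested. In percent, 44.4% of the tested members were higher and 34.9% lower. The test called 64.5% of all tested genes, 41.1% higher and 23.4% lower, so the count of risers lay near the background. At a log2 change of at least 1 in size there were 12 risers and 10 fallers, or 34.9% of tested members, against 5.06% of all tested genes (3.02% higher, 2.04% lower). The median log2 change was 0.10 over the tested members and 0.08 over all tested genes. Median centring gave 25 risers and 25 fallers among members, and quantile normalization gave 25 risers and 27 fallers. The calls over all genes moved with the setting too, from 6088 to 8706 higher and from 4148 to 6252 lower. These member counts are therefore not to be set against the shares of the main fit. The genotypes did not overlap in 48 of the 63, or 76.2%, against 69.8% of all tested genes. Of the tested members, 9 had a Col-0 mean below the filter and passed it through mettl16 alone, and so had to be higher there, and AT4G22470 and AT2G48130 passed through Col-0 alone. Among the 52 members with a mean of at least 0.5 FPKM in each genotype, a limit set after seeing the data, 19 were higher and 21 lower, where 40.5% of all such genes were higher and 23.5% lower. At a log2 change of at least 1 in size these 52 held 4 risers and 10 fallers, or 26.9%, against 4.29% of all such genes, so 8 of the 12 large risers had passed the filter through mettl16 alone. The other 31 members had means of at most 0.473 FPKM and no value above 0.748 FPKM, and 12 of them were listed at 0 in every Col-0 library.

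**Figure D1:**
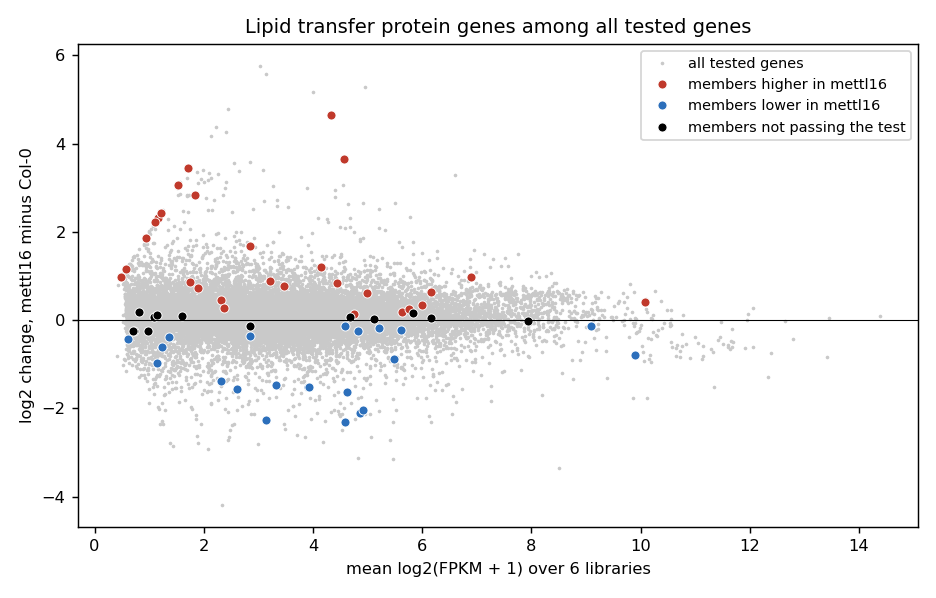
Log2 change (mettl16 minus Col-0, on the log2(FPKM + 1) scale) against mean log2(FPKM + 1) over 6 libraries, with all 19505 tested genes in grey and the 63 tested lipid transfer protein genes as large points. The 28 red points are members higher in mettl16, the 22 blue points members lower in mettl16, and the 13 black points members that did not pass the test.

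The summed level of all 94 genes overlapped between the genotypes. It was 3969 to 4115 FPKM in the mettl16 libraries and 3990 to 4272 FPKM in the Col-0 libraries, or 0.568% to 0.582% of all FPKM in mettl16 and 0.558% to 0.594% in Col-0. What differed was the share of single genes. The 5 most abundant members held 71.4% to 72.4% of that sum in mettl16 and 74.2% to 75.1% in Col-0, and LTP3 and LTP4 together held 4.46% to 4.63% in mettl16, against 0.196% to 0.226% in Col-0.

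The most abundant member was not the same in the genotypes. LTP1 (AT2G38540), a lipid transfer protein gene expressed in the epidermis, stood at 1248, 1279 and 1214 FPKM in mettl16, against 897, 976 and 930 FPKM in Col-0. AT2G45180 stood at 783, 683 and 718 FPKM in mettl16, against 1341, 1095 and 1342 FPKM in Col-0. LTP1 thus lay above AT2G45180 in every mettl16 library and below it in every Col-0 library. LTP1 rose by a log2 change of 0.42 (SE 0.0334, limma adjusted p = 3.02e-06), and AT2G45180 fell by 0.79 (SE 0.102, limma adjusted p = 0.00145). AT2G10940 ranked next in both genotypes, at 531, 510 and 508 FPKM in mettl16, against 575, 556 and 571 FPKM in Col-0. Its fall of 0.14 was small (limma adjusted p = 0.00134), and the genotypes did not overlap. LTP5 (AT3G51600) ranked 4 of 94 in both, at 246, 254 and 229 FPKM in mettl16, against 232, 254 and 257 FPKM in Col-0, and did not pass the test (limma adjusted p = 0.634). After quantile normalization LTP5 was called lower, at -0.20 (limma adjusted p = 0.00213). LTP6 (AT3G08770) ranked 5 of 94 in both and stood at 172, 161 and 166 FPKM in mettl16, against 82.7, 80.4 and 89.0 FPKM in Col-0. It rose 1.98-fold, a log2 change of 0.98 (SE 0.0414, limma adjusted p = 4.13e-08). No library range of these 5 genes overlapped with that of its neighbour in the order, within either genotype.

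**Figure D2:**
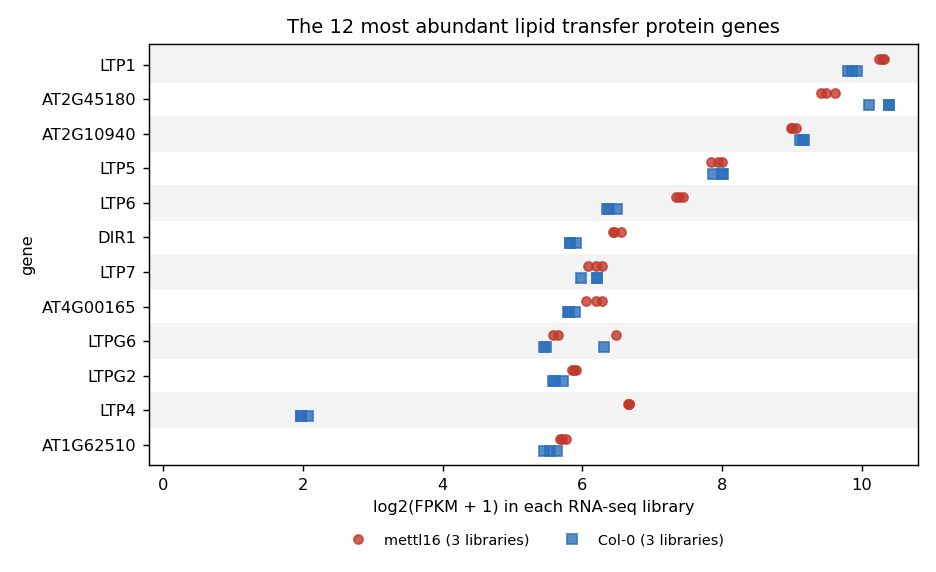
Log2(FPKM + 1) in each library of the 12 lipid transfer protein genes with the highest mean, with mettl16 as red circles above Col-0 as blue squares. LTP1 lies above AT2G45180 in mettl16 and below it in Col-0, LTP4 stands apart by its distance between genotypes, and replicate 3 of LTPG6 is high in both genotypes.

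Of the 8 genes the table describes as a lipid transfer protein proper, 5 rose, LTP2 fell, and LTP5 and LTP7 did not pass the test. Of all tested genes 41.1% rose and 23.4% fell. LTP12, 1 of the 5, passed the filter through mettl16 alone and so had to rise. LTP4 (AT5G59310; chromosome 5, 23925085 to 23925852, build TAIR10) stood at 101, 99.8 and 100.4 FPKM in mettl16, against 2.92, 3.21 and 2.91 FPKM in Col-0. Its mean was 33.3 times higher in mettl16, and it ranked 6 of the 94 genes there and 40 in Col-0. The log2 change was 4.66 (SE 0.0407, limma adjusted p = 4.05e-12). LTP3 (AT5G59320; chromosome 5, 23928971 to 23929745), a gene known to be activated by the drought-responsive factor MYB96, stood at 82.5, 84.9 and 79.9 FPKM in mettl16, against 5.25, 5.79 and 5.999 FPKM in Col-0. It rose 14.5-fold, a log2 change of 3.64 (SE 0.0480, limma adjusted p = 3.23e-11). The pair lies next to each other and reads may be shared between the copies. With their FPKM added the pair stood at 184, 185 and 180 in mettl16, against 8.17, 9.003 and 8.91 in Col-0, and the log2 change was 4.25 (limma adjusted p = 4.35e-12). MYB96 itself was at 21.0, 23.8 and 8.04 FPKM in mettl16, against 21.2, 21.7 and 18.6 FPKM in Col-0. Its mettl16 values spread around those of Col-0 and it did not pass the test (limma adjusted p = 0.559).

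LTP12 (AT3G51590), whose promoter is known to be active in the tapetum, was at 10.04, 9.40 and 10.1 FPKM in mettl16 and listed at 0 in the 3 Col-0 libraries. LTP2 (AT2G38530), which lies beside LTP1 and is known for a role where the cuticle meets the cell wall, stood at 23.9, 24.4 and 26.7 FPKM in mettl16, against 30.1, 31.5 and 28.3 FPKM in Col-0. It fell by 0.25 on the log2 scale (limma adjusted p = 0.00169), while LTP1 rose. Neither gene's values overlapped between the genotypes. LTP1 and LTP2 added together rose by 0.40 (limma adjusted p = 3.62e-06). LTP7 (AT2G15050) ranged over 66.4 to 77.1 FPKM in mettl16 and 62.3 to 73.4 FPKM in Col-0 (limma adjusted p = 0.621).

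**Figure D3:**
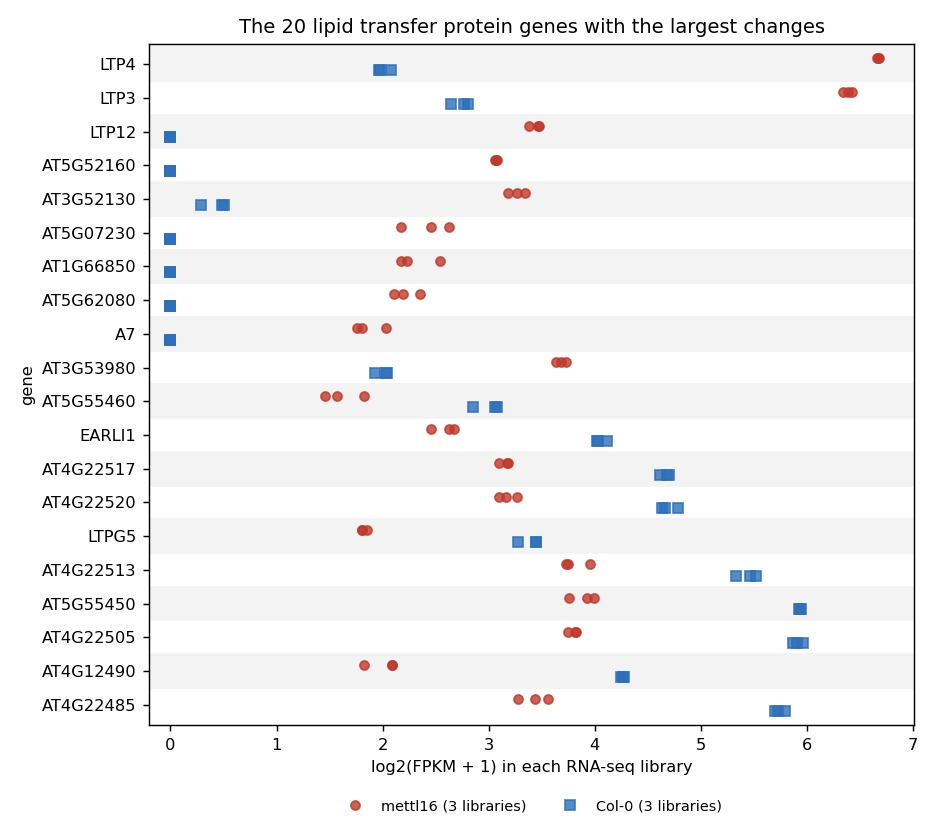
Log2(FPKM + 1) in each library of the 20 tested members with the largest changes past the test, ordered by change, with mettl16 as red circles above Col-0 as blue squares. In all 20 genes the genotypes do not overlap, and 6 of them lie at 0 in the 3 Col-0 libraries.

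A block of members was listed at 0 in Col-0 and present in mettl16. There were 20 members at 0 in all 3 Col-0 libraries, and 7 of them exceeded 1 FPKM in every mettl16 library, which is 7.45% of the 94 genes, against 0.106% of all 25566. No member was at 0 in all mettl16 libraries and above 1 FPKM in all Col-0 libraries, a pattern that 0.0117% of all genes had. Beside LTP12 the 7 genes were AT5G52160, AT5G07230, AT1G66850, AT5G62080, A7 and AT3G07450. AT5G52160 stood at 7.33, 7.47 and 7.41 FPKM in mettl16, and AT5G07230 at 3.52, 4.49 and 5.18 FPKM. AT1G66850 stood at 4.83, 3.52 and 3.69 FPKM in mettl16, and AT5G62080 at 3.58, 4.11 and 3.32 FPKM. A7 (AT4G28395), annotated as ANTHER 7, stood at 3.10, 2.39 and 2.49 FPKM in mettl16, and AT3G07450 at 1.81, 1.01 and 1.01 FPKM. LTP12 was the highest of the 7 and ranked 31 of the 94 genes in mettl16, and AT3G07450 was the lowest. AT3G52130 had the same shape with traces in Col-0, at 9.12, 8.65 and 8.09 FPKM in mettl16, against 0.218, 0.418 and 0.400 FPKM in Col-0 (log2 change 2.84, SE 0.0831, limma adjusted p = 3.46e-09). AT4G14815 was at 1.03, 0.529 and 1.47 FPKM in mettl16 and listed at 0 in Col-0. The 7 genes above, AT3G52130 and AT4G14815 are the 9 members that passed the filter through mettl16 alone, so all had to be higher there. A value of 0 in this table can be a failed estimate, since 6 other genes were at 0 in some library and at or above 5 FPKM in another of the same genotype. None of the 94 was among them, but this check cannot see a failed estimate in all 3 Col-0 libraries. The tapetum and floral organ lists given above move with these genes, and their part was not tested.

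With neighbours defined as members at most 10 kb apart, 43 of the 94 genes lay in 14 runs. Of the 22 fallers 17 lay in a run, as did 9 of the 28 risers and 30 of the 63 tested members. These shares are a description, since neighbours are not independent and may share reads. AT2G45180, AT2G10940, AT1G62790, AT3G22142 and AT4G39670 fell and lay in no run. The longest run, 8 genes over 19.8 kb of chromosome 4 (11839160 to 11858970) from AT4G22460 to AT4G22520, had 7 tested members and all 7 fell. Over all tested genes the share of fallers was 23.4%. AT4G22485 stood at 10.7, 9.80 and 8.66 FPKM in mettl16, against 54.4, 51.0 and 51.8 FPKM in Col-0 (log2 change -2.32, SE 0.0654, limma adjusted p = 5.11e-09). AT4G22505 stood at 13.1, 13.2 and 12.5 FPKM in mettl16, against 61.5, 58.8 and 57.3 FPKM in Col-0 (log2 change -2.11, SE 0.0389, limma adjusted p = 2.03e-10). AT4G22513, AT4G22517 and AT4G22520 fell too, with log2 changes of -1.63, -1.52 and -1.52. AT4G22490, which sits between the strongest fallers, fell by 0.23, with 45.4, 45.7 and 42.2 FPKM in mettl16, against 53.4, 51.1 and 52.4 FPKM in Col-0. AT4G22470 fell by 0.42, but with means of 0.326 FPKM in mettl16 and 0.774 FPKM in Col-0 it passed the filter through Col-0 alone and so had to be lower in mettl16. AT4G22460 was not tested, with no library above 0.0720 FPKM. Whether reads were shared among the copies of this run could not be seen from the table.

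The run around EARLI1 on chromosome 4 (7406105 to 7434858) held 7 genes, of which 3 were tested and fell (23.4% of all tested genes fell). EARLI1 (AT4G12480), a proline-rich member first described as induced by aluminium, stood at 5.17, 4.50 and 5.38 FPKM in mettl16, against 15.3, 15.3 and 16.3 FPKM in Col-0 (log2 change -1.47, SE 0.0624, limma adjusted p = 3.79e-08). AT4G12490 beside it stood at 3.25, 3.26 and 2.55 FPKM in mettl16, against 18.2, 18.0 and 18.4 FPKM in Col-0, and was 6.03 times higher in Col-0. AT4G12500 fell by 0.96. On chromosome 5, AT5G55450 stood at 14.2, 12.5 and 15.0 FPKM in mettl16, against 59.6, 60.7 and 60.1 FPKM in Col-0 (log2 change -2.04, SE 0.0556, limma adjusted p = 3.00e-09). Its neighbour AT5G55460 fell by 1.38 (limma adjusted p = 2.06e-06). The counts of fallers in these 3 runs were the same after median centring, quantile normalization and rescaling to TPM.

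In the run of LTPG5 on chromosome 3 both tested members fell, where 23.4% of all tested genes fell. The log2 change was -1.57 for LTPG5 and -0.38 for AT3G22620. Of the 10 runs with at least 2 tested members, 3 had calls in both directions. These were LTP1 with LTP2, DIR1 with AT5G48490, and AT2G44300 with AT2G44290. Next to LTP4 and LTP3, AT5G59330 stood at 1.01, 0.785 and 0.657 FPKM in mettl16, against 0.861, 1.47 and 1.17 FPKM in Col-0, with overlap and no call (limma adjusted p = 0.0897). AT5G59330 passed the test as lower after median centring (limma adjusted p = 0.0381), after quantile normalization (0.013) and without Col-0 replicate 1 (0.0217). LTP5, which did not pass the test, is the neighbour of LTP12.

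**Figure D4:**
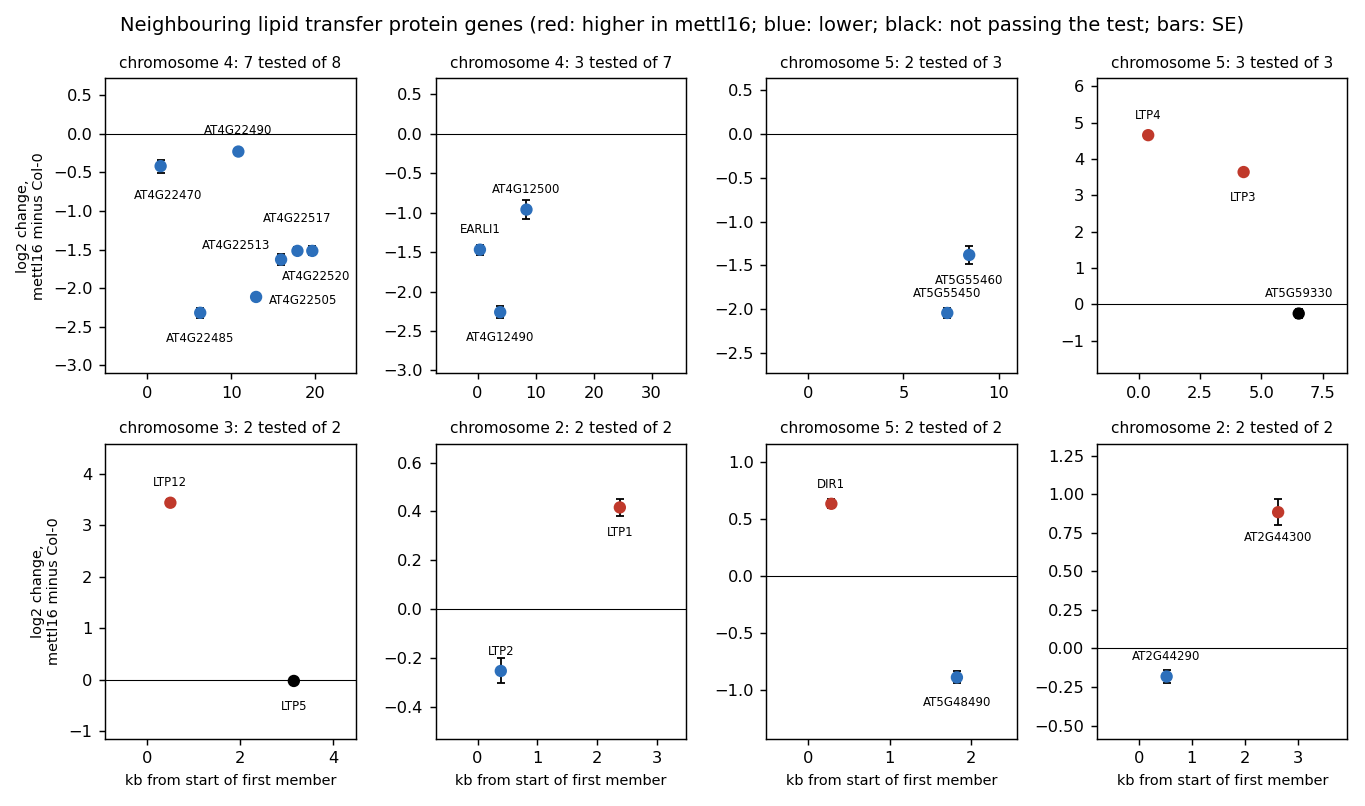
Log2 change (mettl16 minus Col-0) with its standard error for tested members of 8 runs of neighbouring genes, against the distance in kb from the start of the first member. The scale of both axes differs between panels, and the horizontal line marks 0. All 7 tested members of the longest run lie below 0, while LTP1 and LTP2, DIR1 and AT5G48490, and AT2G44300 and AT2G44290 lie on opposite sides of it.

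Of the 9 genes that the table annotates with systemic acquired resistance, 8 were tested, 4 rose and 3 fell. Of all tested genes 41.1% rose and 23.4% fell. DIR1 (AT5G48485), a lipid transfer protein required for the long-distance signal of that response, stood at 93.0, 86.8 and 85.6 FPKM in mettl16, against 55.6, 59.2 and 55.7 FPKM in Col-0. It rose by 0.63 (SE 0.0398, limma adjusted p = 5.54e-07). AT5G48490, the gene next to it, stood at 32.5, 31.6 and 31.2 FPKM in mettl16, against 56.3, 57.9 and 65.6 FPKM in Col-0. It fell by 0.89 (SE 0.0530, limma adjusted p = 4.65e-07). AT5G48490 was the higher of the pair in Col-0 replicates 1 and 3, and DIR1 was the higher in all 3 mettl16 libraries. AT3G53980 rose 3.92-fold to 11.4, 12.3 and 11.8 FPKM in mettl16, against 2.82, 3.10 and 3.13 FPKM in Col-0 (log2 change 1.68, limma adjusted p = 8.69e-09). AT5G05960 rose to 26.0, 27.0 and 25.2 FPKM in mettl16, against 11.0, 11.0 and 10.1 FPKM in Col-0 (log2 change 1.21, limma adjusted p = 2.17e-08). AT3G07450, AT5G55450 and AT5G55460 are given above, and AT2G37870 did not pass the test (limma adjusted p = 0.287). AT3G07450, 1 of the 4 risers, passed the filter through mettl16 alone and so had to rise.

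Of 16 genes of systemic and salicylic acid resistance that are not lipid transfer proteins, 15 were tested, 11 fell and 2 rose. Their median log2 change was -0.56, against 0.08 over all tested genes, of which 23.4% fell and 41.1% rose. ALD1, 1 of the 11, had means of 0.357 FPKM in mettl16 and 1.89 FPKM in Col-0. It passed the filter through Col-0 alone and so had to fall. PR2, PR1 and PR5, which encode defence proteins, fell most, with log2 changes of -3.13, -2.35 and -2.13, while GLY1 and FAD7 of plastid glycerolipid synthesis rose by 0.41 and 0.15. The members annotated with systemic acquired resistance moved both ways, 4 up and 3 down, while most of that list fell. With so few genes these counts are a description and were not tested against the shares over all tested genes.

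The table annotates 22 further members as anchored to a membrane, and 12 of these were tested. Of the 12, 7 rose and 3 fell, where 41.1% of all tested genes rose and 23.4% fell. AT4G14815, 1 of the 7, passed the filter through mettl16 alone and so had to rise. AT2G48130 passed it through Col-0 alone and so had to be lower in mettl16. LTPG5 had a log2 change beyond 1 in size, as did AT4G14815 with a pseudocount of 0.1 (3.38, against 0.98 with 1). LTPG5 (AT3G22600), a protein of the class held at the plasma membrane by a glycosylphosphatidylinositol anchor, stood at 2.49, 2.62 and 2.49 FPKM in mettl16, against 9.91, 9.93 and 8.68 FPKM in Col-0. It fell by 1.57 (SE 0.0647, limma adjusted p = 3.12e-08). LTPG2 (AT3G43720), known for wax export to the cuticle, stood at 58.1, 57.0 and 58.9 FPKM in mettl16, against 52.0, 46.7 and 47.8 FPKM in Col-0, a rise of 0.25 (limma adjusted p = 0.000502). XYP1 (AT5G64080) and XYP2 (AT2G13820) encode xylogen proteins, which are known to promote the formation of xylem vessels. XYP1 stood at 30.1, 26.0 and 27.9 FPKM in mettl16, against 15.2, 15.1 and 15.4 FPKM in Col-0 (log2 change 0.84, limma adjusted p = 4.13e-07). XYP2 rose by 0.77 (limma adjusted p = 1.76e-05), so both xylogen genes were higher without overlap. AT2G44300 rose by 0.88, and AT2G44290 beside it fell by 0.18. AT1G73890 rose by 0.46. AT2G27130 rose by 0.27 (limma adjusted p = 0.0478), its libraries overlapped, and the call was lost without mettl16 replicate 1 or 2 or Col-0 replicate 1 or 2 (0.0588 to 0.159). AT2G48130 had a log2 change of -0.26 and did not pass (limma adjusted p = 0.0688). It was called lower after median centring (limma adjusted p = 0.0279) and quantile normalization (0.00811). Leaving out mettl16 replicate 1 (0.0325) or Col-0 replicate 1 (0.0322) gave the same call.

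LTPG6 (AT1G55260) stood at 46.7, 49.4 and 88.2 FPKM in mettl16, against 42.9, 43.5 and 78.4 FPKM in Col-0. Replicate 3 was the highest in both genotypes, and each mettl16 value lay above the Col-0 value of its number. LTPG6 did not pass the test (limma adjusted p = 0.757), but with the replicate number as a block the adjusted p was 0.00284. The replicate numbers were not shown to pair the samples. LTPG3 (AT1G18280) and LTPG4 (AT4G08670) were not tested, with means of 0.577 and 0.380 FPKM in mettl16 and 0 in Col-0.

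Among the remaining members outside these groups, AT3G18280, AT4G33550 and AT4G15160 rose by 0.63, 0.73 and 0.86, and AT4G00165 by 0.34 to between 65.2 and 76.6 FPKM in mettl16, against 54.5 to 58.4 FPKM in Col-0. AT3G22142 fell by 0.36. AT1G62500 stood at 32.5 to 35.4 FPKM in mettl16, against 31.8 to 34.5 FPKM in Col-0, and did not pass the test (limma adjusted p = 0.586).

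The 5 glycolipid transfer proteins, which move sphingolipids between membranes inside the cell, included 1 riser and 1 faller among the 4 tested. The shares over all tested genes were 41.1% higher and 23.4% lower. ACD11, a ceramide-1-phosphate transfer protein whose loss triggers cell death, stood at 25.7, 24.7 and 24.96 FPKM in mettl16, against 22.9, 23.1 and 25.8 FPKM in Col-0 (limma adjusted p = 0.22). Without Col-0 replicate 3 ACD11 was called higher (limma adjusted p = 0.0227). AT4G39670 fell by 0.62 (limma adjusted p = 0.000239), with 0.824, 0.782 and 1.10 FPKM in mettl16, against 1.70, 1.97 and 2.05 FPKM in Col-0. GLTP1 rose by 0.13 (limma adjusted p = 0.0202), a call lost after median centring (0.233) and quantile normalization (0.251) and without mettl16 replicate 1 or Col-0 replicate 1 or 2 (0.0562 to 0.0686). GLTP3 did not pass (limma adjusted p = 0.104), but was called lower after median centring (0.0193), quantile normalization (0.0201) and without Col-0 replicate 1 (0.0339). GLTP2 was not tested.

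The cuticle list gives the genes of wax and cutin synthesis, export and control with which secreted lipid transfer proteins are thought to work. All 33 were tested, 20 rose, 5 fell and 8 did not pass, where 41.1% of all tested genes rose and 23.4% fell. Among the 20, CYP96A15, SHN1 and SHN3 had Col-0 means of 0.278, 0.0367 and 0.233 FPKM. They passed the filter through mettl16 alone and so had to rise. The median log2 change was 0.27, against 0.08 over all tested genes. After quantile normalization 8 fell. CYP96A15, an alkane hydroxylase of wax synthesis, rose by 5.57, to a mean of 59.7 ± 1.02 FPKM in mettl16, against 0.278 ± 0.0656 FPKM in Col-0 (SD, n = 3 each). CER4, which makes the primary alcohols of wax, rose by 3.55, and WSD1, which makes wax esters, by 2.78. CYP86A2 of cutin synthesis, the wax exporter ABCG12 and KCS1, of very-long-chain fatty acid elongation, fell, with log2 changes of -0.45, -0.27 and -0.16. In the floral organ list, SEP3, AP3 and AP1 rose by 4.27, 3.41 and 3.34. These genes, and A6 and LAP5 of the tapetum list, also passed the filter through mettl16 alone and so had to rise. In the tapetum list, A6, LAP5 and LAP3 rose by 2.07, 1.63 and 1.42, and in the leaf list, LHCB2.3, CAB3 and LHB1B2, which encode chlorophyll-binding proteins, fell, with log2 changes of -1.76, -1.53 and -0.75. RBCS1A, the only riser of that list, had a log2 change of 0.09, a call lost after median centring.

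Few lipid transfer protein genes carried an m6A peak. Of the 63 tested members 5 had a row in the authors' deposited table of peaks, or 7.94%, against 29.2% of the other tested genes. Members are short, with a median span of 780 bases against 2017 bases over the whole table. Among tested genes with a span of 601 to 1092 bases, the middle range of the members, 4 of 34 members (11.8%) and 346 of 1875 other genes (18.5%) had a row. At a mean of 10 FPKM or more, 3 of 33 members (9.09%) and 34.9% of other genes had one, and of other genes at that level within the same span 205 of 773 (26.5%) did. These shares are descriptions of the authors' deposited table and were not tested, and a gene with no row in it is not shown to lack m6A. LTP1, LTP3, LTP4, LTP6, DIR1 and EARLI1 had no row.

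In all, 8 members had 9 peak rows. By the FDR of the authors' deposited table, with a threshold of 0.05, 3 were lower and 1 was higher in mettl16 and 5 were not called. Over all 6437 rows of the authors' deposited table, 69.2% were called, 51.6% lower and 17.6% higher. The fold is taken as mettl16 over Col-0 because the table's name puts mettl16 first.

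AT1G62510 had the lowest FDR. For its 5' UTR peak (chromosome 1, 23137015 to 23137191, build TAIR10) the authors' deposited table gives -0.305 as log2 fold and 2.57e-05 as FDR. The transcript stood at 51.3, 53.6 and 50.1 FPKM in mettl16, against 42.6, 48.8 and 45.3 FPKM in Col-0, a rise of 0.18 (limma adjusted p = 0.00929) that was lost after median centring (0.0751) and quantile normalization (0.0942). AT2G44290 went the other way. Its 3' UTR peak (chromosome 2, 18305230 to 18305584) is listed in the authors' deposited table as higher, by 0.18 (FDR 0.0347), and the transcript fell by 0.18 (limma adjusted p = 0.00534), with 34.01, 33.5 and 33.4 FPKM in mettl16, against 37.2, 36.6 and 41.2 FPKM in Col-0.

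The other lower peaks reach beyond their gene. The 3' UTR peak of AT1G62790 (chromosome 1, 23253733 to 23254765), at -0.363 (FDR 0.0182) in the authors' deposited table, has 2 blocks. Of the 1033 bases it spans, 1022 lie past the gene's end, and it reaches over AT1G62800 on the opposite strand. The 3' UTR peak of AT3G22620 (chromosome 3, 8009540 to 8009864) is at -0.28 (FDR 0.00589) in the authors' deposited table. Of its 325 bases 274 lie past the gene's end, and it reaches over AT3G22630, also on the opposite strand. To which gene of each pair the methylation belongs cannot be told apart here. The transcript fell by 0.13 for AT1G62790 (limma adjusted p = 0.0246) and by 0.38 for AT3G22620 (limma adjusted p = 0.0469). The call of AT1G62790 was lost when mettl16 replicate 2 or 3 or Col-0 replicate 2 or 3 was left out (0.0539 to 0.091), and that of AT3G22620 without mettl16 replicate 2 or 3 or Col-0 replicate 1 or 2 (0.0765 to 0.147).

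The peak in exon 1 of 3 of AT1G73890 (chromosome 1, 27788397 to 27788658) was at -0.395 (FDR 0.0776) in the authors' deposited table, with a transcript that rose to a mean of 4.86 ± 0.340 FPKM in mettl16, against 3.27 ± 0.256 FPKM in Col-0 (SD, n = 3 each). The remaining 4 rows lay in AT1G36150, AT4G33355 and LTPG4, which had means of 0.339, 0.702 and 0.380 FPKM in mettl16, against 0, 0.108 and 0 FPKM in Col-0. Their folds in the authors' deposited table were the largest of the 9, at 1.58 and 1.81 for AT1G36150, -1.37 for AT4G33355 and 1 for LTPG4, with FDR between 0.283 and 0.582. The 7 genes at 0 in all Col-0 libraries and above 1 FPKM in all mettl16 libraries had no row in the authors' deposited table.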

How the data were processed

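FPKM values were deposited by the authors for 6 RNA-seq (input) libraries, 3 of mettl16 and 3 of Col-0, and each column was assigned to its sample through the genotype and number in its name. For the m6A immunoprecipitates a table of peaks was used which, per the file headers, gives the authors' log2 fold change, p-value of the difference and log10 FDR (a score below 0). The submitters' processing notes name edgeR, HOMER, StringTie, HISAT2, fastp and cutadapt, and TAIR10 as build. Not given in the sources used here are the peak caller, how replicates were combined and whether strand was used. FPKM stores no depth: after scaling for relative depth, 13.8% of the low values of 1178 genes were whole multiples of the gene's smallest within 0.05, so no reads were recovered and depth is unknown.

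The genes whose mean reached 0.5 FPKM were tested on log2(FPKM + 1), with a pseudocount of 1, by limma 3.58.1 in R 4.3.3 (trended, robust prior variance, two-sided, Benjamini-Hochberg adjustment over all 19505 genes). A fold change on this scale understates the change of low genes. The step was tested on simulated data. Tables and figures were made with Python 3.11.15, NumPy 2.4.6, pandas 2.3.3 and matplotlib 3.10.9. Names and synonyms came from the RefSeq table of TAIR10.1, which held all 94 members, 23 with a symbol other than the locus. Members were grouped by the description and GO terms of the authors' table.

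The members, groups and lists of 33 cuticle, 16 resistance, 14 tapetum, 13 floral organ, 10 leaf and 9 root genes were chosen with earlier results of these data known. Members with a symbol, with a peak row, among the 20 largest changes or the 5 highest levels, or at 0 in Col-0 and above 1 FPKM in mettl16 were named, and of the lists the 3 largest changes each way. Other genes named were chosen after their values were seen.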

Additional observations from a re-analysis of the deposited data

How the results depend on the processing

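Of the 50 members called, 45 kept direction and call under each of the 14 settings in which they were tested (another pseudocount, filter, scaling, prior variance or block, and leaving out each library), and 5 lost the call in some setting: AT1G62510, AT1G62790, AT2G27130, GLTP1 and AT3G22620. Another 7, not called, passed in some setting. The members called higher ranged from 24 to 37 and lower from 20 to 27, and for all genes from 6088 to 8706 and from 4148 to 6252. With both genotype means at 0.5 FPKM or more, chosen after seeing the data, 19 members were higher and 21 lower, and 7605 and 4411 of all genes. With a log2 change of at least 1 in size, 12 and 10 members and 590 and 397 genes were called. Leaving out each library gave 24 to 29 members higher and 20 to 23 lower, 7306 to 7749 and 4219 to 4277 for all genes, and log2 changes of 4.21 to 4.27 for LTP3 and LTP4 summed and 0.37 to 0.43 for LTP1 and LTP2 summed.

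No called member turned its direction. Among those not called, log2 changes turned to -0.0778 for AT1G12100, -0.0482 for AT1G62500, -0.0289 for AT1G73550, -0.0441 for LTP7 and -0.0430 for AT5G01870 with quantile normalization, to -0.0430 for AT1G62500 and -0.0240 for LTP7 with median centring, and to 0.00303 for LTP5 with TPM, while LTP5 was called lower (-0.200) with quantile normalization. With a pseudocount of 0.1 the members at 0 in Col-0 had larger log2 changes, 6.64 for LTP12 and 6.23 for AT5G52160, beside 5.01 for LTP4. When a library was left out the log2 change was -0.0282 to 0.138 for AT1G12100, -0.133 to 0.437 for LTPG6, -0.00247 to 0.0579 for AT1G62500, -0.0540 to 0.286 for AT1G73550, -0.0299 to 0.101 for LTP7 and -0.0735 to 0.0146 for LTP5. The cause was not tested.

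Of the lists, the count of leaf genes higher (1) was 0 with no filter, median centring or constant prior variance, 3 after quantile normalization and 0 to 2 when a library was left out. With no filter 1 root gene was higher. The tapetum genes higher (8) were 5 with the filter at 1 FPKM, where fewer genes are tested, and 7 to 8 when a library was left out. After quantile normalization 8 cuticle genes were lower (5) and 1 resistance gene higher (2). The peak counts of 3 lower and 1 higher became 0 higher at an FDR of 0.01, and 0 lower and 0 higher with a log2 fold change of at least 1 in size.

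With the replicate number as a block 28 members were higher and 22 lower. Same-numbered libraries deviated together by a correlation of -0.0823, 0.00866 and 0.00173, so the numbers were not taken as pairs.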
